A study of Homo sapiens with 6 samples.

Results

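The proteasome genes of LNCaP cells were examined, that is, every array probe whose annotated symbol is PSMA, PSMB, PSMC, PSMD, PSME, PSMF or PSMG followed by a number, without PSMC3IP and without pseudogenes. This rule found 66 probes for 43 genes among the 48802 probes of the array. Of these, 51 probes for 38 genes reached a mean log2 signal of 7 over the 6 arrays and were tested, among 16752 probes tested in all. The tested probes comprised 17 for the 20S core (13 genes), 19 for the 19S cap (14 genes), 3 for the immune subunits and the PA28 activator (3 genes) and 12 for assembly chaperones and other regulators (8 genes). The other 15 probes lay below the minimum. The minimum fell between PSMD9, with a mean of 7.14, and the dimmer of the PSME1 probes, with a mean of 6.93. PSMA7, PSMC5, PSMD7, PSMD13 and PSMG4 also belong to these classes and were not analysed here.

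LNCaP is an androgen-sensitive prostate cancer line derived from a lymph node metastasis. All 6 arrays came from this line, transfected for 24 h with a synthetic precursor at 30 nM, either pre-miR-331-3p or the negative control precursor pre-miR-NC. Each group had 3 arrays, called A, B and C, and total RNA was read on an Illumina Human-6 v3 BeadChip with 1 colour. The comparison asks which transcripts differ between cells given the miR-331-3p precursor and cells given the control. The labels do not say whether the 3 arrays of a group came from separate cultures, so a p-value measures only the spread between these arrays, which may be technical, and 3 arrays a group limit the precision of every value.

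The proteasome is the protease that degrades ubiquitin-tagged proteins. Its barrel, the 20S core, is built of outer rings of alpha subunits (PSMA) and inner rings of beta subunits (PSMB), and 3 of the beta subunits, PSMB5, PSMB6 and PSMB7, carry the catalytic sites. The 19S cap, also called the regulatory particle, sits on the end of the barrel. Its base holds a ring of ATPases (PSMC) that unfold the substrate, and its lid holds the deubiquitinase PSMD14. Interferon induces replacement catalytic subunits, PSMB8, PSMB9 and PSMB10, which form the immunoproteasome, and the PA28 activator made of PSME1 and PSME2. Dedicated chaperones assemble the core (PSMG1 to PSMG4) and the base of the cap (PSMD5, PSMD9 and PSMD10). Cells keep the subunits in balance chiefly through shared transcriptional control, in which NFE2L1 raises many subunit genes together when proteasome activity is short. MicroRNAs act by pairing their seed, near the 5′ end, with sites in messenger RNAs.

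The mature product of the transfected precursor is shown because it is the agent that separates the groups. Its sequence is that of RefSeq (GRCh38.p14, chr12:95308480-95308500, plus strand), written 5′ to 3′, with the seed, bases 2 to 8, in capitals.
hsa-miR-331-3p: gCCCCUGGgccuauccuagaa

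Promoter windows of the immune class are shown because their genes share a sequence that the symbol rule did not use. The RefSeq table (GRCh38.p14) held 51 promoters for 42 of the 48 listed proteasome genes, each of 300 bases, from 250 before the start to 50 after it. The letters GAAANNGAAA, the core of the interferon-stimulated response element, were searched on both strands. They were present in 4 of the 6 immune-class promoters (66.7%), in 7 of the 51 proteasome promoters (13.7%) and in 3.57% of all 35116 promoters of the table. They were present in 2 of 14 core promoters, 0 of 18 cap promoters and 1 of 11 promoters of assembly and regulator genes. In all 4 immune-class promoters the match read the same, as the capitals show. The match in the promoter of PSMG4, an assembly chaperone gene, had these letters too. Each window is written 5′ to 3′ on the strand of the match.
PSMB8 (chr6:32844032-32844061, plus strand): aggaggaagtGAAAGCGAAAgccacagatc
PSMB10 (chr16:67936852-67936881, minus strand): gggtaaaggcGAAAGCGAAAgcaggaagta
PSME1 (chr14:24136189-24136218, minus strand): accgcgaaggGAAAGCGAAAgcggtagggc
PSME2 (chr14:24146619-24146648, minus strand): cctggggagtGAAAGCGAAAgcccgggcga
These matches describe the letters in these windows and are not evidence of binding.

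Windows from the assembly class are shown for the core of the antioxidant response element, the site read by NFE2L1 and NFE2L2. The letters TGACNNNGC, searched on both strands, were present in 5 of 11 assembly and regulator promoters (45.5%), in 3 of 6 immune-class, 5 of 18 cap and 2 of 14 core promoters, in 15 of 51 proteasome promoters (29.4%) and in 13.3% of all promoters. Windows of PSMG1, PSMG2 and PSMD9 are printed. PSMD5 and PSME4 also held a match, whereas PSME3 and PSMD10 held none. Differences between the groups at these genes are given below, and whether a match goes with their direction was not tested. The capitals again mark the match.
PSMG1 (chr21:39183616-39183644, minus strand): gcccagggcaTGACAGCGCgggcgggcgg
PSMG2 (chr18:12658689-12658717, plus strand): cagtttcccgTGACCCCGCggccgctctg
PSMD9 (chr12:121888678-121888706, plus strand): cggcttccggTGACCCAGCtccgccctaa
The CCAAT box, read by NF-Y, was present in 20 of 51 proteasome promoters (39.2%) and in 34.6% of all promoters. It was in 7 of 14 core and 8 of 18 cap promoters, and in 3 of 11 assembly and regulator promoters.

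Directions below follow the array labels, and these oppose the study's own direction. ERBB2, a receptor that the study describes as lowered by miR-331-3p, averaged 10.80 ± 0.12 (log2 signal, SD over 3 arrays) under the miR-331-3p label against 9.69 ± 0.014 under the miR-NC label, a difference of 1.11. RALA, a small GTPase that the study also describes as a target, stood at 10.87 ± 0.092 against 9.91 ± 0.12, a difference of 0.96. As folds these differences are 2.16 for ERBB2 and 1.94 for RALA, close in size to the array decreases that the study lists for both genes. If the labels were exchanged, every direction given here would turn, while every size and every p-value would stay as it is. Each difference is the mean of the arrays labelled miR-331-3p minus the mean of those labelled miR-NC, on the log2 scale.

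One array stood apart. A departing array was defined as one that differed by at least 0.4 from the mean of the other arrays of its group, while the other 2 differed from each other by under 50% of that gap. Array C labelled miR-331-3p departed at 4.22% of all tested probes, downwards at 534 and upwards at 173, and 61 of the downward gaps reached a log2 unit. Each of the other 5 arrays departed downwards at 17 to 46 probes and upwards at 11 to 99, and none of their downward gaps reached a log2 unit. The array weight that limma estimated was 0.43 for array C labelled miR-331-3p and 0.96 to 1.56 for the others. Among luminal markers of LNCaP, KRT8, KRT18, KLK2, KLK3, FOLH1 and TMPRSS2 were measured above the minimum, while the basal keratins KRT5 and KRT14 and the blood markers PTPRC, CD3E and LYZ lay below it. The luminal list, with 6 of its 8 genes tested, had a median deviation from the genes' own means of -0.14 to -0.10 in arrays labelled miR-NC and of 0.091 to 0.15 in arrays labelled miR-331-3p. At the brightest probe 5 of these luminal genes were above 0 and 1 was below. The latter was KLK3, with a difference of -0.23 (limma adjusted p = 0.16). KRT18 differed by 0.041 at its brightest probe and by -0.23 and -0.26 at the others. KLK2, TMPRSS2 and the mesenchymal marker VIM (0.60 and 0.51 at its 2 probes) passed the test as higher under the miR-331-3p label. The part of either pattern in the proteasome values was not tested.

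Each signal is a mean over a whole culture, so fewer cells with a transcript and less transcript per cell cannot be told apart. Most proteasome genes did not differ between the groups by an amount that this design could call. Of the 51 probes, 1 passed the limma test at an adjusted p of 0.05 as higher under the miR-331-3p label (PSMD8, a lid subunit) and 2 passed as lower (PSME3, a nuclear activator, and PSMG1, a core assembly chaperone). Across all tested probes 4.3% passed as higher and 3.66% as lower, 7.96% in either direction, and the 3 called members make 5.88% of 51. At an unadjusted limma p below 0.05 there were 15 members (29.4%) against 22.1% of all probes. The median difference over the 51 member probes was -0.11, with 17 above 0 and 34 below, against a median of -0.0028 over all tested probes. Over the 38 genes, each represented by its brightest probe, the median was -0.030, with 15 genes above 0 and 23 below. The 95% interval of the difference lay wholly within a 1.5-fold change for 46 members (90.2%), against 93.7% of all tested probes. The 5 exceptions were 2 probes for PSMC4 and 1 each for PSMA1, PSMD10 and PSMG1.

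The classes had different medians. Over genes, the median difference was -0.036 for the core, -0.019 for the cap, 0.24 for the immune class and -0.21 for assembly and regulator genes. Over probes, the medians in the same order were -0.036, -0.11, 0.24 and -0.23. Arrays of the groups did not overlap, with the arrays labelled miR-331-3p lower, at 12 members (23.5%) against 13.3% of all tested probes, and 7 of these 12 were assembly or regulator probes. The non-overlapping members on the higher side numbered 4 (7.84%) against 13.4% of all tested probes, and they were PSMD8, PSMA2, PSMB2 and PSME1. No test of the difference between classes was made.

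**Figure D1:**
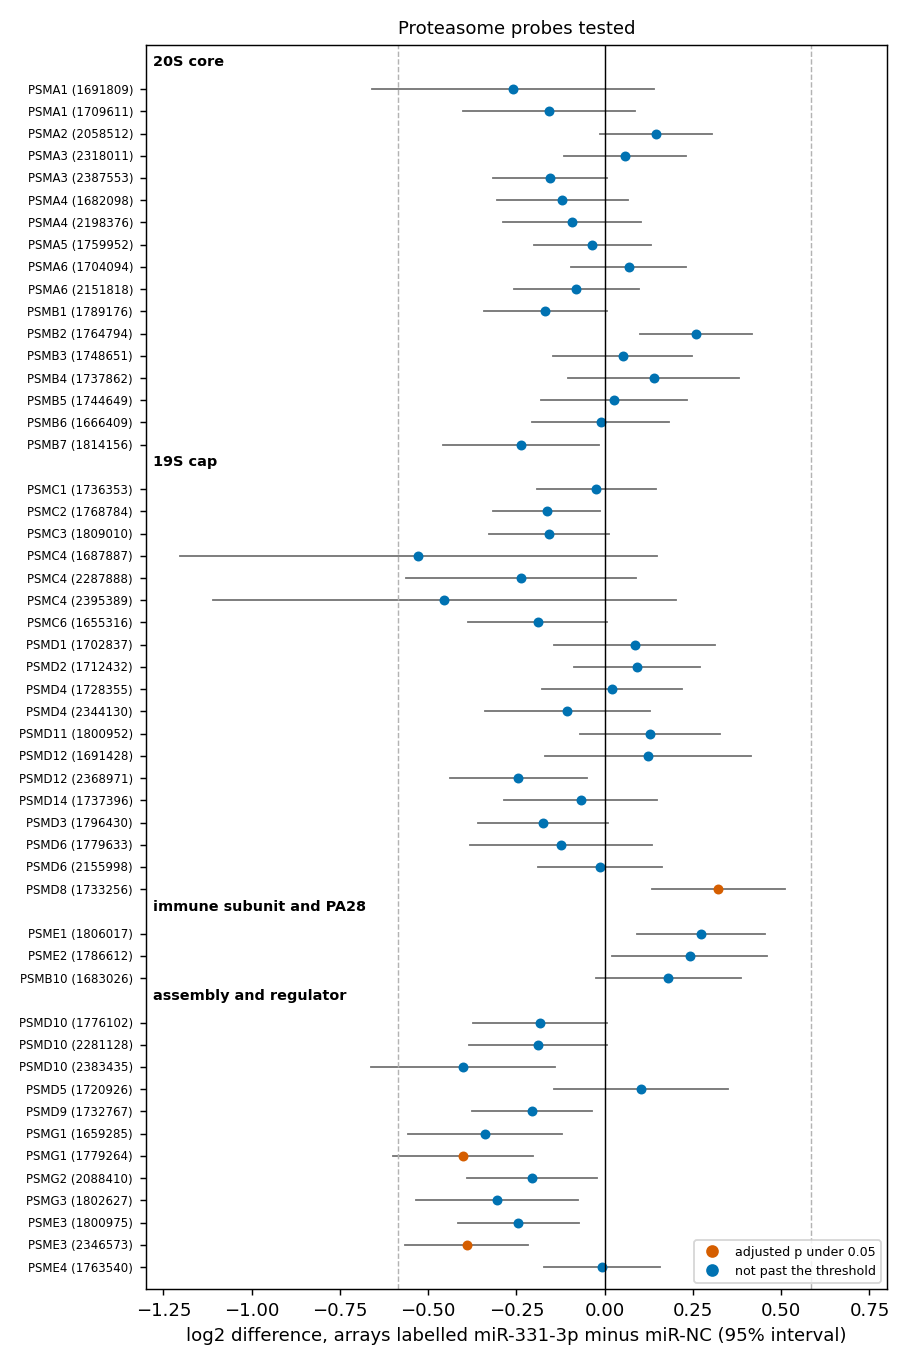
Difference in log2 signal (miR-331-3p label minus miR-NC label) of each of the 51 tested proteasome probes, grouped by class, with the 95% interval of the limma fit as lines, a 1.5-fold change as dashed lines and the 3 called probes in orange. Core and cap probes lie on both sides of 0, all 3 immune-class probes lie above it, and 11 of the 12 assembly and regulator probes lie below it.

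Differences of the core probes had a median size of 0.12, against 0.095 over all tested probes. The 95% interval lay within a 1.5-fold change for 16 of the 17 core probes (94.1%), against 93.7% of all tested probes. None of the 17 passed the limma test. An unadjusted limma p below 0.05 was found at 2 (PSMB2 and PSMB7), or 11.8% against 22.1% of all tested probes. The t-test named in the methods gave 3 at an unadjusted p below 0.05 and 0 after adjustment. No share of all tested probes is given for the unadjusted p of that t-test, so its counts here and below have no background. Differences ran from -0.26 to 0.26, with 7 probes above 0 and 10 below. The gene median was -0.086 in the alpha ring (1 of 6 genes above 0) and 0.027 in the beta ring (4 of 7 above 0). The median deviation of the core genes from their own means, array by array, was -0.049, 0.054 and 0.050 in arrays A, B and C labelled miR-NC and 0.015, -0.056 and 0.0091 in arrays A, B and C labelled miR-331-3p, so the groups overlapped.

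Of the catalytic subunits, PSMB5, which carries the chymotrypsin-like site, had log2 signals of 12.00, 11.99 and 12.24 in arrays A, B and C labelled miR-NC and of 12.03, 12.03 and 12.25 in arrays A, B and C labelled miR-331-3p. Array C was the highest in both groups, and the difference was 0.027 with a 95% interval of -0.18 to 0.23. PSMB6, which carries the caspase-like site, stood at 12.46, 12.67 and 12.53 in the arrays labelled miR-NC and at 12.66, 12.41 and 12.56 in those labelled miR-331-3p. The groups overlapped throughout, with a difference of -0.011 and an interval of -0.20 to 0.18. PSMB7, which carries the trypsin-like site, stood at 12.25, 12.31 and 12.28 in the arrays labelled miR-NC and at 11.90, 11.95 and 12.29 in those labelled miR-331-3p. Arrays A and B labelled miR-331-3p were lower than every control array, whereas array C lay among the controls. The PSMB7 difference was -0.24 (SE 0.10, limma adjusted p = 0.19), and without array C labelled miR-331-3p it was -0.36 (adjusted p = 0.011). Leaving out any other single array gave no call, with limma adjusted p-values up to 0.41.

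The other beta subunits were structural. PSMB2 was the core member nearest to the threshold, with 11.55, 11.49 and 11.44 in the arrays labelled miR-NC and 11.81, 11.71 and 11.74 in those labelled miR-331-3p. The groups did not overlap, and the difference was 0.26 (SE 0.073, limma adjusted p = 0.053). PSMB1, by contrast, was lower without overlap, with a difference of -0.17 (adjusted p = 0.24). PSMB3 and PSMB4 differed by 0.051 and 0.14, with overlapping groups.

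Alpha subunits form the gate and the docking surface for the cap. PSMA2 differed by 0.15 and was higher without overlap (limma adjusted p = 0.27), and PSMA5 differed by -0.036. PSMA4 had differences of -0.12 and -0.092 at its 2 probes. PSMA3 had 0.057 at one probe and -0.15 at the other, and PSMA6 had 0.067 and -0.081, so their probes disagreed in sign. The brighter PSMA1 probe differed by -0.16, and by -0.036 without array C labelled miR-331-3p. Its dimmer tested probe read 9.55, 9.58 and 9.40 in the arrays labelled miR-NC and 9.48, 9.57 and 8.70 in those labelled miR-331-3p. Only array C labelled miR-331-3p was low there, with a gap of -0.82 to the mean of the other arrays of its group, and the difference of -0.26 became 0.016 without it.

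Cap genes held the one member that passed as higher. PSMD8, the lid subunit known in yeast (as Rpn12) for joining the lid last, had log2 signals of 10.58, 10.69 and 10.56 in arrays A, B and C labelled miR-NC and of 10.83, 10.88 and 11.08 in arrays A, B and C labelled miR-331-3p. Every array labelled miR-331-3p was above every control array, and array C was the highest. The means were 10.93 ± 0.13 and 10.61 ± 0.071 (SD over 3 arrays each), a difference of 0.32 (SE 0.086) or 1.25-fold, with a limma adjusted p of 0.043. This call rested near the threshold. It was lost under 8 of the 13 alternatives, with adjusted p-values of 0.055 to 0.20, among them the leaving out of any single array other than array A labelled miR-331-3p (adjusted p from 0.080 to 0.15).

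Of the other lid genes, PSMD11, which bridges lid and core, differed by 0.13, PSMD3 by -0.17 and PSMD14, the deubiquitinase, by -0.068. PSMD12 was read by 2 probes above the minimum that moved in opposite directions. The brighter one read 12.25, 11.80 and 11.88 in the arrays labelled miR-NC and 12.21, 12.25 and 11.84 in those labelled miR-331-3p. Array A labelled miR-NC departed upwards there by 0.41, and the difference was 0.12 (limma adjusted p = 0.66). The dimmer one read 10.62, 10.81 and 10.49 in the arrays labelled miR-NC and 10.38, 10.43 and 10.37 in those labelled miR-331-3p, a difference of -0.24 without overlap (adjusted p = 0.12). The other 3 PSMD12 probes had means between 6.73 and 6.77, below the minimum. PSMD6 differed by -0.014 at its brighter probe. At its dimmer probe the arrays labelled miR-NC read 10.72, 10.60 and 10.68 and those labelled miR-331-3p read 10.62, 10.76 and 10.24, so that array C alone was low, and the difference of -0.12 became 0.026 without it.

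Among the base subunits that are not ATPases, the scaffold proteins PSMD1 and PSMD2 differed by 0.085 and 0.091, and the ubiquitin receptor PSMD4 by 0.021 and -0.11 at its 2 probes. None of these had groups that did not overlap. The gene median was 0.085 for these 3 genes and 0.054 for the 6 lid genes, with 3 lid genes above 0 and 3 below.

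The ATPases of the base were all below 0 at the brightest probe of each of 5 genes, with a gene median of -0.16, and none passed the test. PSMC2 had 11.83, 11.86 and 11.88 in the arrays labelled miR-NC and 11.66, 11.71 and 11.71 in those labelled miR-331-3p. It was lower without overlap by a small and even amount, with a difference of -0.16 (limma adjusted p = 0.18). PSMC3 also differed by -0.16 without overlap (adjusted p = 0.26), PSMC6 by -0.19 (adjusted p = 0.24) and PSMC1 by -0.024.

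PSMC4 had the widest differences of the cap, and they rested on 1 array. This ATPase is the base subunit that binds the chaperone PSMD10. The probe with the widest gap read 9.46, 9.57 and 9.54 in arrays A, B and C labelled miR-NC and 9.61, 9.37 and 8.01 in arrays A, B and C labelled miR-331-3p. Arrays A and B labelled miR-331-3p lay close to the controls, while array C was low. Its gap of -1.48 to their mean ranked 16 from the lowest among the gaps of that array over 16752 probes. The difference was -0.53 (SE 0.31, 95% interval -1.20 to 0.15, limma adjusted p = 0.36), and without array C it was -0.033. A second probe read 9.53, 9.71 and 9.50 in the arrays labelled miR-NC and 9.78, 9.40 and 8.19 in those labelled miR-331-3p. Array C was again low, with a gap of -1.40 (rank 21), and the difference of -0.45 became 0.014 without it. The third probe read 9.43, 9.46 and 9.42 in the arrays labelled miR-NC and 9.33, 9.50 and 8.77 in those labelled miR-331-3p. The same array was low, with a gap of -0.64 (rank 187), and the difference of -0.24 became -0.024 without it.

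**Figure D2:**
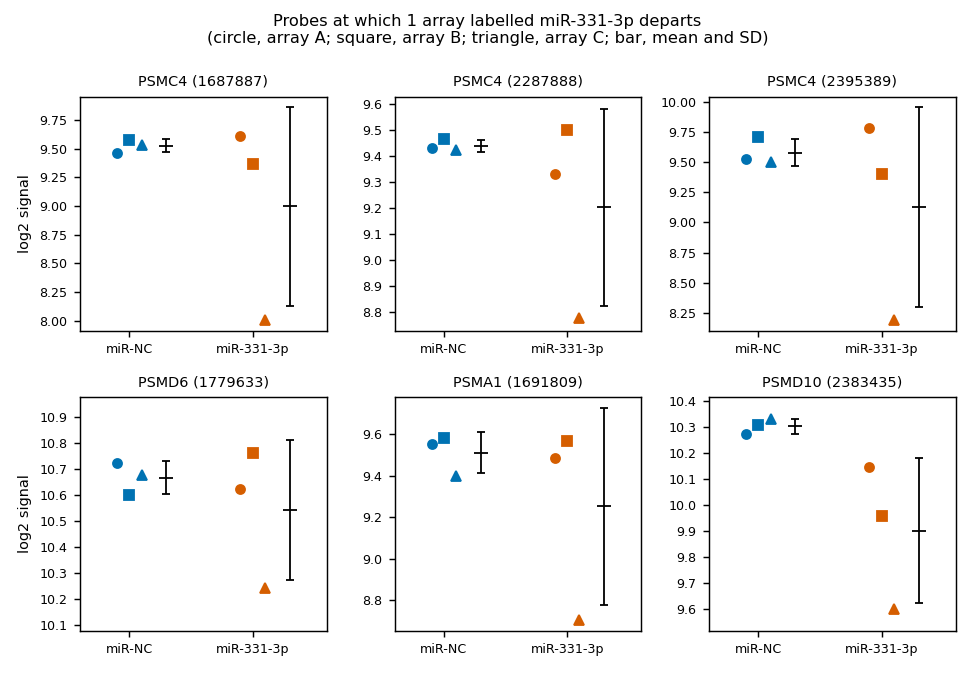
Log2 signal in each of the 6 arrays at the 6 member probes where array C labelled miR-331-3p departed from its group, with the mean and SD of each group as bars and an axis of its own in each panel. That array (triangle) is the low point at all 6, of which 3 belong to PSMC4.

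A single array departed at 7 of the 51 members (13.7%) against 6.12% of all tested probes. Array C labelled miR-331-3p departed at 6 members (11.8%), always downwards, against 4.22% of all tested probes. These 6 probes belong to 4 genes, PSMC4, PSMA1, PSMD6 and PSMD10, and probes of 1 gene share a transcript, so they are not independent counts. At PSMA1 and PSMD6 the brighter probe did not reach the rule for a departure at that array, but array C was the lowest of its group there too. The brighter PSMA1 probe read 12.25, 12.04 and 11.78 in arrays A, B and C labelled miR-331-3p. The brighter PSMD6 probe read 11.79, 11.73 and 11.57 in them. Whether the low readings come from the RNA or from the array was not tested.

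The immune class divided into genes that were well measured and genes at the floor of the array. The 4 probes for PSMB8 read between 6.68 and 7.06 in single arrays and the 2 for PSMB9 between 6.74 and 7.01, beside an array median of 6.87, so these immunoproteasome subunits were not measured above the minimum in either group. PSMB10, which takes the place of PSMB7, read 11.02, 10.93 and 11.00 in arrays A, B and C labelled miR-NC and 11.00, 11.13 and 11.35 in arrays A, B and C labelled miR-331-3p. Array A labelled miR-331-3p lay among the controls and array C was the highest, and the difference was 0.18 (SE 0.093, 95% interval -0.025 to 0.39, limma adjusted p = 0.29).

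PSME1, the alpha subunit of PA28, read 11.68, 11.71 and 11.65 in the arrays labelled miR-NC and 11.86, 12.10 and 11.89 in those labelled miR-331-3p. The groups did not overlap, and the difference was 0.27 (SE 0.082, 95% interval 0.092 to 0.45, limma adjusted p = 0.070). Without array C labelled miR-331-3p it was 0.30 and passed (adjusted p = 0.047), although that array did not depart at this probe. With any other single array left out PSME1 did not pass, and the highest limma adjusted p was 0.22. PSME2, the beta subunit, read 11.05, 10.84 and 10.68 in the arrays labelled miR-NC and 11.09, 11.21 and 11.00 in those labelled miR-331-3p. Array A labelled miR-NC overlapped the other group, and the difference was 0.24 (SE 0.10, 95% interval 0.022 to 0.46, adjusted p = 0.18). Thus 0 of the 3 probes passed, and 2 had an unadjusted limma p below 0.05, where 22.1% of all tested probes had one. The methods' t-test gave 1 before and 0 after adjustment. The median deviation of the class was -0.050, -0.13 and -0.17 in the arrays labelled miR-NC and 0.047, 0.23 and 0.074 in those labelled miR-331-3p, without overlap. All 3 genes carry the interferon-type letters printed above, as does PSMB8, which was at the floor.

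**Figure D3:**
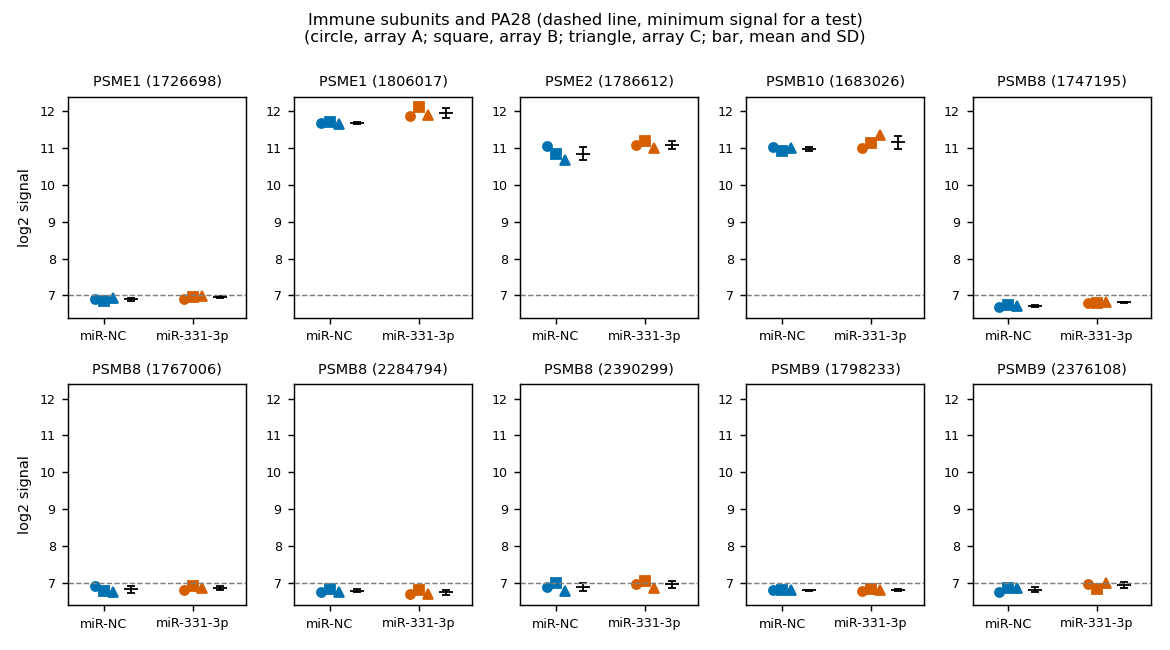
Log2 signal in each array for the 10 probes of PSMB8, PSMB9, PSMB10, PSME1 and PSME2, with the mean and SD of each group as bars and the minimum mean signal of 7 as a dashed line. PSMB10, PSME2 and the brighter PSME1 probe lie between 10.68 and 12.10, whereas all PSMB8 and PSMB9 probes lie near the line.

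Genes that act with the immunoproteasome in antigen processing were compared as a further list of 9, of which 6 were tested by 9 probes. TAP1, a subunit of the peptide transporter whose gene neighbours PSMB9, passed as higher with a difference of 0.42 (SE 0.097, limma adjusted p = 0.023). TAPBP, which links the transporter to class I molecules, differed by 0.29 at its brighter tested probe (adjusted p = 0.16) and by -0.032 at its dimmer one (adjusted p = 0.85). TAP2 differed by 0.18 and -0.071 at its 2 probes, and B2M by -0.065 and 0.063. IRF1, an interferon-response factor, differed by -0.047. The gene median was 0.094, and it was 0.032 when all tested probes of a gene were averaged. It was 0.011 without a minimum signal and 0.23 at a minimum of 7.5.

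Assembly chaperones and regulators were the class with the most members on 1 side. Of the 12 probes 11 were below 0, and 2 passed the limma test as lower (16.7%, against 3.66% of all tested probes). An unadjusted limma p below 0.05 was found at 8 (66.7%, against 22.1% of all tested probes). The 7 that were lower without overlap make 58.3% of the class, against 13.3% of all tested probes. The methods' t-test gave 5 at an unadjusted p below 0.05 and 0 after adjustment, and no share of all tested probes is given for its unadjusted p. The median deviation of the 8 genes was 0.075, 0.064 and 0.12 in arrays A, B and C labelled miR-NC and -0.059, -0.098 and -0.12 in arrays A, B and C labelled miR-331-3p, so the groups did not overlap. Neighbouring probes of 1 gene share a transcript, and over genes 7 of 8 were below 0.

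PSMG1 forms with PSMG2 the chaperone on which the alpha ring is built. Its called probe read 10.00, 9.71 and 9.97 in arrays A, B and C labelled miR-NC and 9.56, 9.47 and 9.43 in arrays A, B and C labelled miR-331-3p. Every array labelled miR-331-3p was below every control, with means of 9.49 ± 0.068 and 9.89 ± 0.16 (SD over 3 arrays each). The difference was -0.40 (SE 0.091, 95% interval -0.60 to -0.20), or 1.32-fold lower, with a limma adjusted p of 0.021. Its other probe read 10.14, 10.22 and 10.27 in the arrays labelled miR-NC and 9.86, 10.08 and 9.68 in those labelled miR-331-3p. It was lower without overlap as well, with a difference of -0.34 (adjusted p = 0.062), and it passed in 1 of the fits with a single array left out (limma adjusted p = 0.028). The call at the first probe was lost without array B labelled miR-331-3p (adjusted p = 0.073), without array A or C labelled miR-NC (0.088 and 0.097) and in the methods' t-test (0.18).

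PSMG2 read 11.07, 11.09 and 11.19 in the arrays labelled miR-NC and 11.01, 10.96 and 10.77 in those labelled miR-331-3p, a difference of -0.21 without overlap (limma adjusted p = 0.17). PSMG3, part of the second core chaperone pair, read 9.01, 8.95 and 9.23 in the arrays labelled miR-NC and 8.66, 8.65 and 8.96 in those labelled miR-331-3p. Array C was the highest in both groups. The groups overlapped because array C labelled miR-331-3p lay just above array B labelled miR-NC, and the difference was -0.31 (adjusted p = 0.11). Without array C labelled miR-331-3p PSMG3 passed (adjusted p = 0.014). It did not pass with any other single array left out, and the highest limma adjusted p was 0.34. The gene median of these 3 core chaperones was -0.31, with none above 0. POMP, which matures the core after the rings have met and which the symbol rule does not take in, differed by -0.031.

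Of the cap chaperones, PSMD10 (gankyrin) was read by 3 probes, all below 0. The probe with the widest difference read 10.27, 10.31 and 10.33 in the arrays labelled miR-NC and 10.15, 9.96 and 9.60 in those labelled miR-331-3p. The groups did not overlap, array C labelled miR-331-3p was the lowest with a gap of -0.45, and the difference was -0.40 (SE 0.12, limma adjusted p = 0.064). Without that array the difference was -0.25 (adjusted p = 0.086). The probe passed in 1 of the other fits with a single array left out (limma adjusted p = 0.017). The other probes differed by -0.18 and -0.19 (adjusted p = 0.24 for each), with overlapping groups. PSMD9 differed by -0.21 without overlap (adjusted p = 0.14) at a mean signal just above the minimum. PSMD5 was the only member of the class above 0, with a difference of 0.10 (adjusted p = 0.67), and it read -0.028 without array C labelled miR-331-3p.

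**Figure D4:**
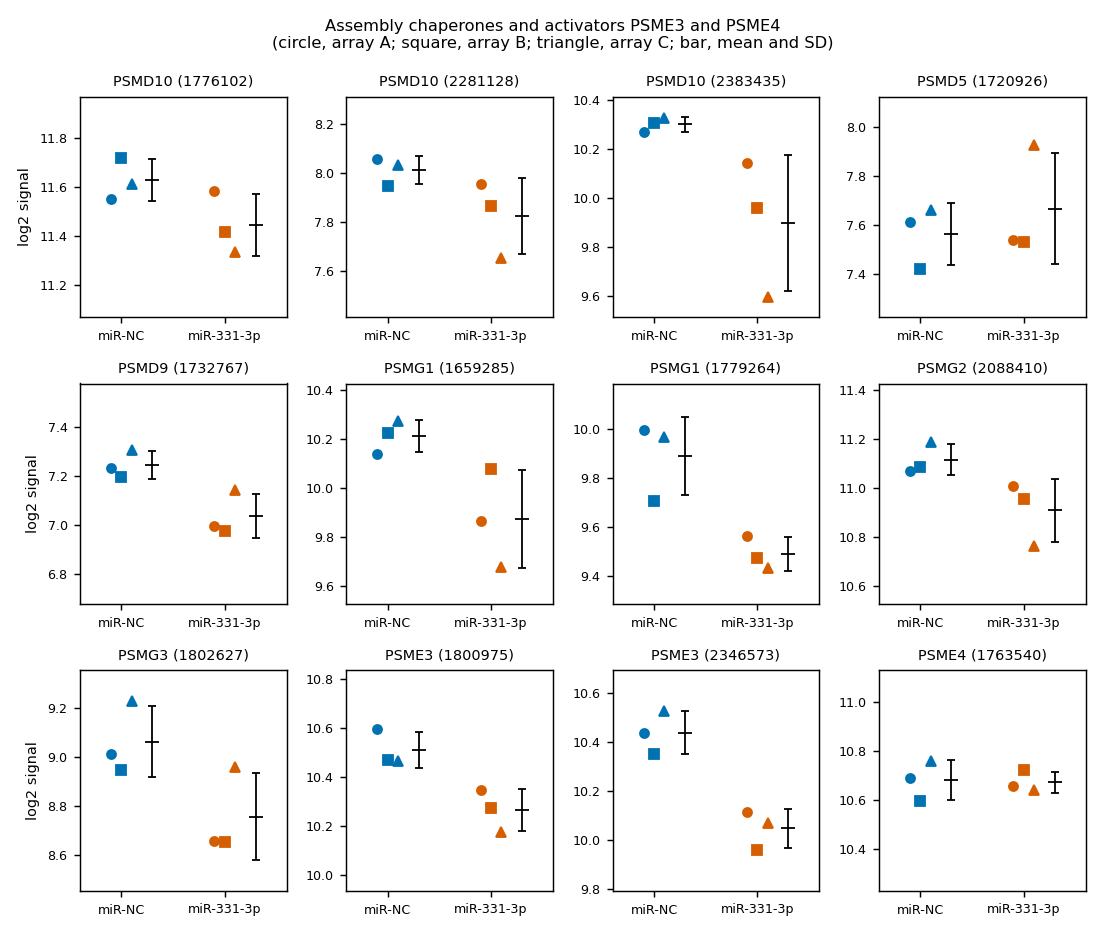
Log2 signal in each array for the 12 tested probes of assembly chaperones and regulators, with circles for array A, squares for B and triangles for C, and bars for the mean and SD of each group on an axis of its own in each panel. The arrays labelled miR-331-3p lie below all arrays labelled miR-NC at 7 probes, among them both probes of PSMG1 and both of PSME3.

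The remaining regulators are alternative caps and an inhibitor. PSME3, or PA28 gamma, is a nuclear activator that opens the core without ATP. Its called probe read 10.44, 10.35 and 10.53 in arrays A, B and C labelled miR-NC and 10.11, 9.96 and 10.07 in arrays A, B and C labelled miR-331-3p. All 3 arrays labelled miR-331-3p were below all controls, with means of 10.05 ± 0.079 and 10.44 ± 0.087 (SD over 3 arrays each), a difference of -0.39 (SE 0.079, 95% interval -0.56 to -0.22) or 1.31-fold lower, with a limma adjusted p of 0.012. Its other probe read 10.60, 10.47 and 10.46 in the arrays labelled miR-NC and 10.35, 10.27 and 10.17 in those labelled miR-331-3p, again lower without overlap, with a difference of -0.24 (adjusted p = 0.086). The call was lost without array B labelled miR-331-3p (adjusted p = 0.056), without array C labelled miR-NC (0.068) and in the methods' t-test (0.10). PSME4, the activator PA200, differed by -0.0081 with a 95% interval of -0.17 to 0.16, and the inhibitor PSMF1 had a mean of 6.83, below the minimum. The PA28 genes of the immune class and PSME3 thus had opposite signs, and the difference between them was not tested.

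Where several tested probes read 1 gene, they had the same sign for 7 of 11 genes (PSMA1, PSMA4, PSMC4, PSMD6, PSMD10, PSME3 and PSMG1) and opposite signs for 4 (PSMA3, PSMA6, PSMD4 and PSMD12).

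Other genes of the pathway were compared in lists of partners. Among proteins that bind the assembled proteasome, 14 probes for 10 genes were tested. Of these, 1 passed as higher and 0 as lower, where 4.3% and 3.66% of all tested probes did. The probe that passed belonged to UBE3C, a ligase that extends ubiquitin chains on the proteasome. Its difference was 0.36 (limma adjusted p = 0.025), and the gene median of the list was -0.015. Ubiquitin shuttles and the VCP unfoldase with its cofactors had a gene median of 0.14 over 10 genes, and none of their 13 probes passed. An unadjusted p below 0.05 was found at 4 by limma, where 22.1% of all tested probes had one, and at 3 by the methods' t-test. The shuttle and autophagy receptor SQSTM1 differed by 0.39 (adjusted p = 0.065), and the VCP cofactor NPLOC4 by 0.32 (adjusted p = 0.094).

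The factors that control transcription of proteasome genes had a gene median of 0.011 over 9 genes, and none of their 10 probes passed. An unadjusted p below 0.05 was found at 3 by limma, where 22.1% of all tested probes had one, and at 4 by the methods' t-test. NFE2L1 differed by 0.16 (limma adjusted p = 0.24), and NFE2L2, named because its site was searched in the promoters, by 0.029. The NF-Y subunits NFYA and NFYC differed in opposite directions, by -0.35 and 0.31 (adjusted p = 0.058 and 0.059). The COP9 signalosome, a complex built on the same plan as the lid, had 12 tested probes for 9 genes and a gene median of -0.048. COPS7A passed as higher with a difference of 0.63 (adjusted p = 0.0013), and COPS8 passed as lower at 1 of its 2 probes with a difference of -0.34 (adjusted p = 0.033).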

How the data were processed

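Log2 signals were used as deposited. The authors corrected the scanner output for background, stabilized its variance and quantile-normalized it, and the deposited log2 values of the 6 arrays share 1 distribution (6.52 to 13.94). A table of raw values was not used, because the names of its 12 value columns match no sample label. Of the 48802 probes, 27577 carried 1 gene symbol, 13 several and 21212 none here. Symbols were updated by gene identifier.

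Differences were fitted with limma 3.58.1 in R 4.3.3 (lmFit and eBayes, two-sided) over the 16752 probes with a mean log2 signal of at least 7, with Benjamini-Hochberg adjustment and a threshold of 0.05. An exact permutation test of 3 against 3 arrays cannot go below p = 0.1 and was not used for calls. Members were taken by symbol, values in every array were printed for called, catalytic, immune-class and departing members and for the other probes of called genes, and a departing array needed the remaining 2 of its group to differ by under 50% of its gap. The members, lists and rules were chosen with earlier results of these data known. Scripts were tested on simulated data. Alternatives were other minima, the methods' t-test (Student), array weights, the array letter as a block, cyclic loess, an intensity trend and leaving out each array. Sequences are RefSeq's (GRCh38.p14), and a motif match counted on either strand.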

Additional observations from a re-analysis of the deposited data

How the results depend on the processing

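The count of proteasome probes passing as higher, 1, became 3 with array weights, 2 after cyclic loess, and 0 with an intensity trend or the methods' t-test, and ranged from 0 to 1 when single arrays were left out. The count passing as lower, 2, became 5 with array weights, 4 with the array letter as a replicate block and 0 in the t-test, and ranged from 0 to 4 when single arrays were left out. Without array C labelled miR-331-3p the 4 lower were PSMB7, PSMG1, PSMG3 and PSME3. The t-test gave 11 members at an unadjusted p below 0.05, with no share of all tested probes to set beside them. In their deviations from the group mean, same-lettered arrays correlated at -0.043, 0.017 and 0.22, and arrays of different letters at -0.17 to 0.20. The deviations within a group sum to 0, so these values cannot decide whether the letters pair the arrays.

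Over all probes, 720 higher and 613 lower became 115 and 49 in the t-test, and 363 to 765 and 263 to 697 when single arrays were left out. The median difference of all proteasome genes ranged from -0.059 to -0.031 and that of assembly and regulator genes from -0.25 to -0.17 when single arrays were left out. The cap median was -0.065 when all probes of a gene were averaged. The cause of these shifts was not tested.

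Of 662 values of member probes under alternatives, 606 kept sign and side of the threshold, 15 lost the call, 15 gained it and 26 changed sign. With array weights PSMD6 (brighter probe) became 0.019, PSMB5 -0.028 and PSME4 0.0027, and PSME4 was 0.0028 after cyclic loess. When single arrays were left out the difference ranged from -0.42 to 0.016 for PSMA1, -0.074 to 0.013 for PSMA5, -0.026 to 0.091 for PSMB3, -0.046 to 0.11 for PSMB5, -0.067 to 0.054 for PSMB6, -0.054 to 0.026 for PSMC1, -0.78 to 0.014 for PSMC4, -0.12 to 0.017 for PSMD14, -0.044 to 0.11 for PSMD4, -0.028 to 0.17 for PSMD5, -0.23 to 0.026 and -0.061 to 0.048 for the PSMD6 probes, and -0.051 to 0.031 for PSME4.

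Signals near the array median of 6.87 limit PSMB8, PSMB9 and PSMF1, whose probes lay below the minimum of 7 and were left out of the limma test.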
